A study of Mus musculus with 8 samples.

Results

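The 10 genes described here encode transcription factors and cofactors of blood stem cells and mast cells: Gata1, Gata2, Tal1, Lyl1, Lmo2, Zfpm1, Runx1, Fli1, Spi1 and Mitf. They were taken by name from an expression table of 54232 gene rows, and each of the 10 names matched 1 row. All 10 passed the filter on low values that left 19087 rows for testing, and the lowest of them averaged 128 normalized counts. The set was chosen by names drawn up with earlier results of these same 6 libraries in view, namely normalized counts and the lower Lyl1 values after C28. Levels and changes are therefore a description, set beside those of all genes tested, and the p-values below are no independent support.

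RNA was sequenced from 3 libraries of mouse cells treated with C28 for 3 h and from 3 libraries of cells given the solvent DMSO. Only the code name of the compound C28 is at hand (028 in the sample names), without its dose. All 6 libraries are labelled as female germline stem cells, mitotic germ cells of the ovary kept in culture, of C57BL/6 background, with no allele or transgene named. Whether the replicates were separate cultures is not labelled, so p-values reflect the spread of these 6 libraries and that spread may be technical. The H3K27ac peak lists of the series were not analysed here, because no gene positions on their genome build (mm9) were at hand.

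In blood development these proteins work largely as complexes. TAL1 or its close relative LYL1, both basic helix-loop-helix factors, pairs with an E protein to bind E-box DNA, and LMO2 bridges that pair through LDB1 to GATA1 or GATA2, zinc finger factors that bind GATA sites. ZFPM1, also called FOG1, binds GATA factors as a cofactor and has no known DNA site of its own. RUNX1, FLI1, an ETS factor, and SPI1, the ETS factor PU.1, act at many of the same enhancers in stem cells, and in mast cells GATA2, SPI1 and MITF are known to be needed for lineage genes such as Kit.

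The libraries held 16930212 to 19197376 reads assigned to genes, and the 37 mitochondrially encoded genes took 3.14% to 3.59% of them. Of 16 germline genes, 12 had fewer than 10 reads over the 6 libraries, 6 of them 0 reads. The most read were Ifitm3 with 1214 reads, Piwil2 with 510 and Zbtb16 with 167. The RNA-binding proteins Ddx4 and Dazl, which define germ cells, had 4 reads and 1 read, and Pou5f1 and Dppa3 had 0 of 108208382 reads (a count of 0 allows up to 3 reads, counting error only). Mast cell genes were uneven. Kit, the stem cell factor receptor, averaged 20987 normalized counts and Cpa3, a granule carboxypeptidase, 6753, whereas Ms4a2, the beta chain of the IgE receptor, had 3 reads and its alpha chain Fcer1a and the tryptase Tpsb2 had 0. Of the 32 rows of mast cell genes found, 17 averaged at least 100 normalized counts and 4 had 0 reads. Among genes of other tissues that use these factors, 6 of 8 melanocyte genes had fewer than 10 reads (Tyr and Dct, enzymes of pigment synthesis, had 0), as did 7 of 8 endothelial and 8 of 18 erythroid and megakaryocyte genes. Of 6 basophil genes, 2 had fewer than 10 reads and 3 averaged at least 100 normalized counts (Il18rap 8853, Itgb7 2182 and Cd200r3 581). Prss34 had 0 reads, Ccr3 had 2 and Mcpt8 averaged 78.4 normalized counts. Cd200r3 averaged 58.0 in replicate 1 and 842 in the other libraries. Of 12 macrophage and neutrophil genes, 5 had fewer than 10 reads and 2 averaged at least 100 (Adgre1 1348 and Cd68 409).

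Values below are normalized counts, which are the authors' read counts divided by a size factor per library and are not corrected for gene length, so they are compared between libraries and not between genes. Changes were tested with limma on log2(value + 1) over all 19087 rows, with Benjamini-Hochberg adjustment and a threshold of 0.05. Libraries with the same replicate number deviated together in the 2 groups, so a blocked fit, which compares C28 with DMSO within each replicate number, is given beside the fit without it. In these bulk samples, fewer cells of a type and less RNA per cell cannot be told apart.

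Lyl1 (ENSMUSG00000034041) was lower in all C28 libraries. It was at 1956, 2035 and 2021 normalized counts in C28 replicates 1 to 3, against 3280.5, 2916 and 2761 in DMSO replicates 1 to 3. The C28 values lay close together and the groups did not overlap, with the highest C28 value well below the lowest DMSO value. The means were 2004 ± 41.9 with C28 and 2986 ± 267 with DMSO (SD, n = 3 each), and the log2 fold change was -0.57 (0.673-fold). Without the block it missed the threshold (SE 0.078, limma adjusted p 0.0645), and with the block it fell (SE 0.060, limma adjusted p 0.000506). The authors' deposited table gives Lyl1 a log2 fold change of -0.51 and an adjusted p of 5.12e-06.

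Tal1 (ENSMUSG00000028717), the relative of Lyl1, showed a smaller difference that was almost the same in each pair. It was at 1209.9, 1271 and 1157 normalized counts in C28 replicates 1 to 3, against 1537, 1619.5 and 1476 in DMSO replicates 1 to 3. The groups did not overlap. The C28 to DMSO ratio of same-numbered libraries was 0.787, 0.784 and 0.784, whereas that of Lyl1 was 0.596, 0.698 and 0.732, so the Lyl1 ratio was the lower in every pair; this difference between the genes was not tested. Tal1 averaged 1213 ± 56.6 with C28 and 1544 ± 72.0 with DMSO (SD, n = 3 each), a log2 fold change of -0.35. It did not pass without the block (SE 0.073, limma adjusted p 0.228) and fell with it (SE 0.052, limma adjusted p 0.00354). The authors' deposited table gives Tal1 a log2 fold change of -0.31 and an adjusted p of 0.0271, and every gene of the 10 except Lyl1, Tal1 and Zfpm1 an adjusted p of 0.443 or more.

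**Figure D1:**
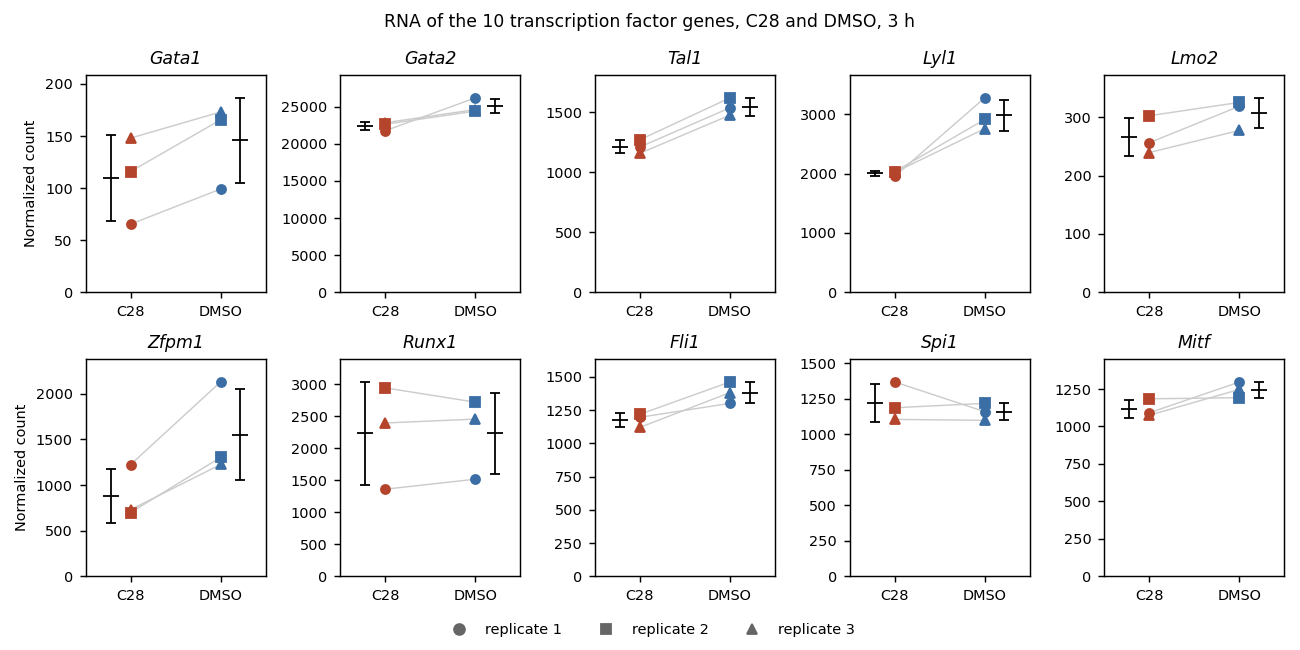
Normalized counts of the 10 genes (vertical axes, each from 0) in the 3 C28 libraries (red, left) and the 3 DMSO libraries (blue, right). Marker shapes give the replicate number, grey lines join same-numbered libraries, and black bars are the mean ± SD. Gata2, Tal1, Lyl1, Zfpm1, Fli1 and Mitf lie lower in every C28 library than in any DMSO library. Zfpm1 drops along each grey line while replicate 1 stays apart.

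Zfpm1 (ENSMUSG00000049577), the GATA cofactor, was lower with C28 in every pair. It was at 1223, 697 and 729.8 normalized counts in C28 replicates 1 to 3, against 2131, 1304 and 1225 in DMSO replicates 1 to 3. Replicate 1 was the highest library of each group, and C28 replicate 1 lay just under DMSO replicate 3, so the groups were separated by less than their spread, and under TMM scaling they overlapped. Within the pairs the ratio was 0.574, 0.535 and 0.596. The means were 884 ± 295 with C28 and 1553 ± 502 with DMSO (SD, n = 3 each), a log2 fold change of -0.82 (0.568-fold). Without the block Zfpm1 did not pass (SE 0.27, limma adjusted p 0.513). With the block it fell (SE 0.057, limma adjusted p 3.97e-05, a 95% confidence interval of 0.520 to 0.620-fold), and it ranked 18 by p among the 19087 rows. The authors' deposited table gives Zfpm1 a log2 fold change of -0.44 and an adjusted p of 0.0931. DESeq2 on the recovered reads without the block gave -0.81 and a similar adjusted p of 0.0944. For every gene described here the deposited fold change lay nearer 0 than in that DESeq2 fit. How the deposited fold changes were computed is not labelled, so their size is not compared with the limma values.

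Gata2 (ENSMUSG00000015053), a GATA factor of stem cells and mast cells, was at 21760.1, 22639 and 22842 normalized counts in C28 replicates 1 to 3, against 26194, 24412 and 24610.1 in DMSO replicates 1 to 3. The groups did not overlap, but the difference was small. It averaged 22414 ± 575 with C28 and 25072 ± 977 with DMSO (SD, n = 3 each), or 0.894-fold, and did not pass in limma without the block (adjusted p 0.538) or with it (adjusted p 0.0743). On the recovered reads with the block, edgeR and DESeq2 called it down (adjusted p 0.0187 and 0.0327).

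Gata1 (ENSMUSG00000031162), the GATA factor of red cells, platelets and mast cells, was read much less deeply. It was at 65.4, 115.9 and 148 normalized counts in C28 replicates 1 to 3, against 99.1, 166 and 173 in DMSO replicates 1 to 3. The groups overlapped, and replicate 1 was the lowest library of each. Its 63 reads in C28 replicate 1 carry an exact 95% Poisson interval of 48.4 to 80.6 reads, and its 181 reads in DMSO replicate 3 one of 156 to 209 reads (counting error only). The ratio within pairs was 0.660, 0.700 and 0.855. The log2 fold change of -0.44 did not pass without the block (SE 0.34, limma adjusted p 0.861) or with it (SE 0.14, limma adjusted p 0.106). It was -0.11 without C28 replicate 1 and -0.70 without DMSO replicate 1.

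Lmo2 (ENSMUSG00000032698), the bridging protein of the complex, was at 256, 303 and 239 normalized counts in C28 replicates 1 to 3, against 319, 325 and 277 in DMSO replicates 1 to 3. The groups overlapped, with C28 replicate 2 above DMSO replicate 3. It was lower with C28 in 3 of 3 pairs, with ratios of 0.804 to 0.930, and did not pass in limma without the block (adjusted p 0.798) or with it (adjusted p 0.254).

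Fli1 (ENSMUSG00000016087) was at 1196, 1219 and 1120.4 normalized counts in C28 replicates 1 to 3, against 1301, 1463 and 1382 in DMSO replicates 1 to 3. The groups did not overlap. It averaged 1179 ± 51.7 with C28 and 1382 ± 80.6 with DMSO (SD, n = 3 each), 0.853-fold, and lay just outside the threshold with the block (limma adjusted p 0.0508, and 0.516 without the block). With the block, edgeR called it (adjusted p 0.0233) and DESeq2 did not (adjusted p 0.0869).

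Runx1 (ENSMUSG00000022952) was at 1360.4, 2943 and 2395 normalized counts in C28 replicates 1 to 3, against 1516, 2720.5 and 2456 in DMSO replicates 1 to 3. The groups overlapped throughout, and in each of them replicate 1 was the lowest library. The log2 difference between C28 and DMSO was -0.026, with a 95% confidence interval of -0.75 to 0.70 without the block and of -0.15 to 0.10 with it. Changes of the size seen for Lyl1, Tal1 or Zfpm1 lie outside the interval with the block.

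Spi1 (ENSMUSG00000002111), which drives myeloid and mast cell genes, was at 1368, 1186 and 1104 normalized counts in C28 replicates 1 to 3, against 1158, 1217 and 1097 in DMSO replicates 1 to 3. It was the only gene of the 10 with a log2 fold change above 0 (0.07, with a 95% confidence interval of -0.07 to 0.21 with the block). That direction rested on replicate 1, and with replicate 1 left out of both groups the log2 fold change was -0.01. Mitf (ENSMUSG00000035158), a helix-loop-helix leucine zipper factor of mast cells and pigment cells, was at 1092, 1185 and 1075 normalized counts in C28 replicates 1 to 3, against 1297, 1192 and 1247 in DMSO replicates 1 to 3. The groups did not overlap, though C28 replicate 2 and DMSO replicate 2 were nearly equal and under quantile normalization the groups overlapped. Mitf did not pass in limma without the block (adjusted p 0.705) or with it (adjusted p 0.212).

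**Figure D2:**
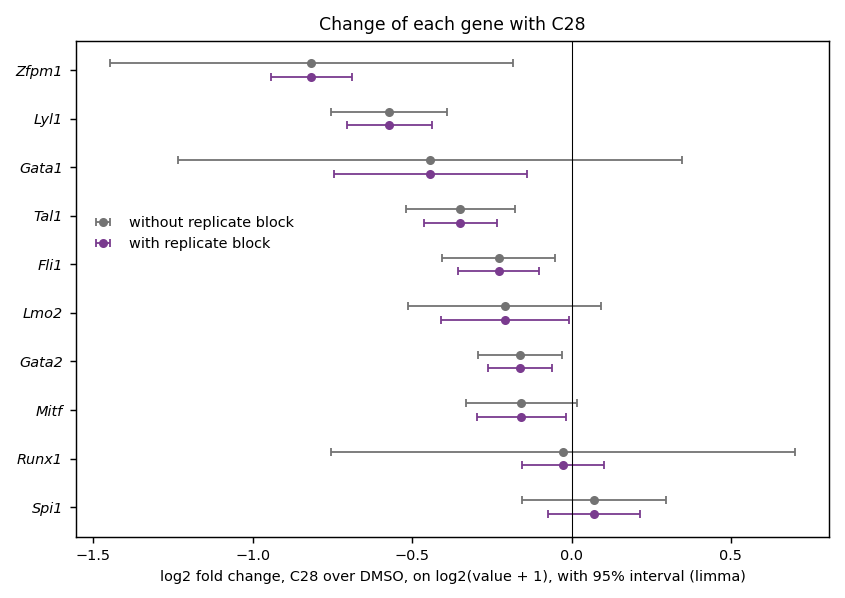
The log2 fold change of each gene, C28 over DMSO (horizontal axis), with its 95% confidence interval in limma without the replicate block (grey) and with it (purple). The estimates are the same in the 2 fits; the intervals of Zfpm1, Gata1 and Runx1 narrow most with the block, and 9 of the 10 estimates lie below 0.

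Set side by side, 9 of the 10 genes had a log2 fold change below 0, with a median of -0.22, against 49.0% of all genes tested and a median of 0.00. Without the block 0 of the 10 passed in limma, where 0.136% of all genes did, and 5 of the 10 had an unadjusted p under 0.05 with lower values after C28, against 3.41% of all genes. On the recovered reads without the block, edgeR called 0 of the 10 (0.147% of all genes) and DESeq2 called 2 down, Tal1 and Lyl1 (0.32% of all genes). With the block in limma 3 fell and 0 rose, while 2.25% of all genes fell and 2.54% rose; among the 9681 rows averaging at least 100 normalized counts, the level of all 10 genes, 4.19% fell. With the block edgeR called 5 of the 10 down (3.34% of all genes) and DESeq2 called 4 (1.81%). C28 values lay below all DMSO values for 6 of the 10 genes (Gata2, Tal1, Lyl1, Zfpm1, Fli1 and Mitf) and for 6.5% of all genes tested, or 9.11% of those averaging at least 100. C28 was lower in 3 of 3 pairs for 8 of the 10 genes and for 18.8% of all genes, or 26.3% of those averaging at least 100. Since earlier results were known when the genes were chosen, these shares describe the set and do not test it.

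The 3 calls with the block differed in how much they depended on a pair of libraries. Leaving out replicate 1 in both groups, limma called Lyl1, Tal1, Zfpm1, Gata2 and Fli1 (5 of 10). Leaving out replicate 2 it called Zfpm1 alone, with an adjusted p of 0.0638 for Lyl1 and 0.158 for Tal1. Leaving out replicate 3 it called Lyl1 and Zfpm1, with an adjusted p of 0.0903 for Tal1. Without replicate 1 the fit called 854 genes in all, without replicate 2 it called 47 and without replicate 3 it called 191, against 914 with all 3 pairs. The log2 fold change of Zfpm1 stayed between -0.85 and -0.77 over the 3 cases.

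Apart from C28, 3 of the 10 genes differed by replicate number. In the F test of the replicate number in limma's fit with the block, Runx1, Zfpm1 and Gata1 passed, where 16.2% of all genes did, or 26.5% of those averaging at least 100, so that share is close to the background. Without limma's intensity trend 0 genes and 0 of the 10 passed, and in edgeR the same 3 of the 10 did. Runx1 averaged 1438 normalized counts over the 2 libraries of replicate 1 and 2629 over the other 4 (limma adjusted p 1.70e-05). Gata1 likewise was lower in replicate 1, at 82.2 against 151 (limma adjusted p 0.00504). Zfpm1 went the other way, at 1677 against 989 (limma adjusted p 4.70e-05). For the other 7 genes the replicate 1 mean was 0.964 to 1.10 times that of the other libraries.

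**Figure D3:**
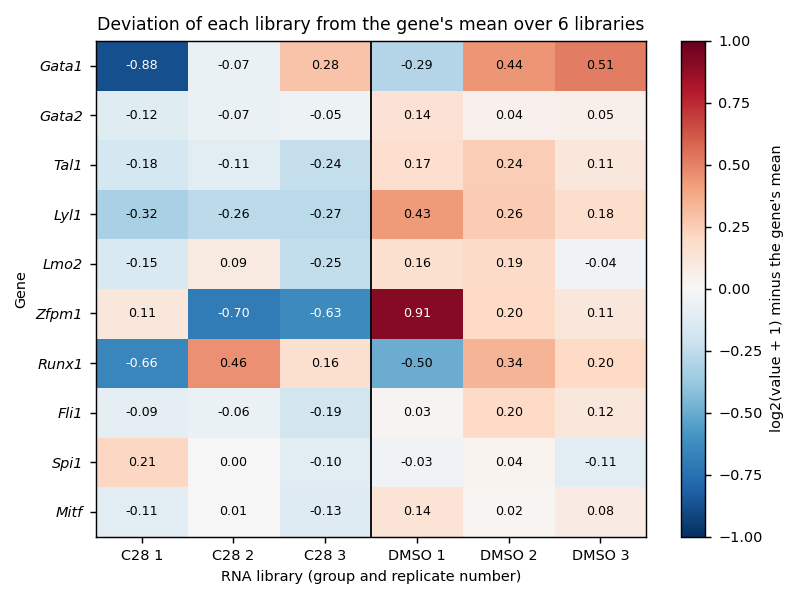
Deviation of each library (columns, C28 left and DMSO right of the black line) from each gene's mean over the 6 libraries (rows), on the log2(value + 1) scale. Runx1 and Gata1 are low and Zfpm1 is high in replicate 1 of each group. Lyl1, Tal1, Gata2 and Fli1 lie below their mean in every C28 library and above it in every DMSO library.

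Marker genes of other cells moved with the replicate number too, and their part in these differences was not tested. Summed normalized counts of 10 fibroblast and feeder cell genes were 2164 and 1939 in replicate 1 of C28 and DMSO, and 3084 to 5176 in the other 4 libraries, and 7 of the 8 tested passed the F test. Fn1 and Dcn, averaging 1594 and 1353, made up most of the fibroblast sums, whereas Lum and Postn had 2 reads each. The sums of 12 macrophage and neutrophil genes were 940.1 and 946 in replicate 1 and 1953 to 2542 in the others, with 5 of 7 passing. Adgre1 and Cd68 made up most of these sums, at 745 and 182 in C28 replicate 1 and 1833 and 654 in DMSO replicate 2. Csf1r, of the same list, averaged 1.81 normalized counts. Among mast cell genes 15 of 24 passed, and of the basophil genes tested 4 of 4. Over all genes 16.2% passed, or 26.5% of those averaging at least 100. The mast cell genes went in both directions. Il1rl1 averaged 1796 normalized counts in replicate 1 and 5119 in the other libraries, whereas Gzmb averaged 763 and 69.3 and Kit 23757 and 19602. Between the groups, the sums for mast cell genes were 68714 to 71338 in C28 libraries and 71353 to 77070 in DMSO libraries, which do not overlap but by a margin far smaller than the spread in either group. Kit and Csf2rb, averaging 20987 and 16636, were the largest parts of the mast cell sums. For fibroblast genes the sums overlapped, at 2164 to 5176 in C28 libraries and 1939 to 4996 in DMSO libraries. Of the 8 fibroblast genes tested 1 fell with C28 in the blocked fit, against 2.25% of all genes. That gene was Pdgfrb, a growth factor receptor of fibroblasts and other mesenchymal cells. It was at 40.5, 161 and 174 normalized counts in C28 replicates 1 to 3, against 52.4, 257 and 277 in DMSO replicates 1 to 3, lower in 3 of 3 pairs (0.674-fold; limma adjusted p 0.0353 with block, 0.948 without), and its part in the differences of the 10 genes was not tested.

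Of 28 genes for proteins known to work with the 10 factors, 26 were tested. In limma without the block 0 passed, 4 having an unadjusted p under 0.05, against 7.83% of all genes. With the block 1 rose and 1 fell, where 2.54% of all genes rose and 2.25% fell, and the median log2 fold change over the list was -0.02. The pair that passed were related repressors. Gfi1b, a repressor of red cell and platelet precursors, was at 453, 496 and 456 normalized counts in C28 replicates 1 to 3, against 337, 326 and 266 in DMSO replicates 1 to 3. It rose 1.52-fold with the block (limma adjusted p 0.00350, and 0.199 without the block), with no overlap between the groups. Gfi1, a repressor of stem cells and granulocytes, fell to 0.727-fold with the block (limma adjusted p 0.0108, and 0.560 without the block), at 512 ± 116 with C28 and 694 ± 65.7 with DMSO (SD, n = 3 each).

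The direct partners of the TAL1, LMO2 and RUNX1 proteins, named here after their values were seen, did not pass in either limma fit. Tcf3, an E protein that pairs with TAL1 and LYL1, was at 2405 ± 138 with C28 and 2558 ± 14.9 with DMSO, and Tcf12, another E protein, at 2324 ± 94.5 and 2148 ± 64.7 (normalized counts, SD, n = 3 each). The groups did not overlap for either, with C28 lower for Tcf3 and higher for Tcf12. Of all genes tested, 6.5% lay lower and 8.15% higher without overlap. For Ldb1 and Cbfb the groups overlapped. Ldb1, the scaffold of the complex, was at 3001 ± 253 with C28 and 3288 ± 195 with DMSO. Cbfb, the subunit that RUNX1 binds DNA with, was at 1668 ± 247 with C28 and 1583 ± 277 with DMSO. With the block their adjusted p in limma ranged from 0.145 for Ldb1 to 0.468 for Cbfb.

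Of 17 close relatives of the 10 genes, 10 were tested and 5 had 0 reads, including Gata5, Gata6 and Lmo1. The endodermal and gonadal factor Gata4 averaged 2.49 normalized counts and Gata3, of T cells, 33.7. In limma 0 of the 10 tested passed without the block, 2 having an unadjusted p under 0.05, against 7.83% of all genes. With the block 1 fell, against 2.25% of all genes. That gene was Runx3, a relative of Runx1 that works in lymphoid and myeloid cells. It was at 2234, 2765 and 3012 normalized counts in C28 replicates 1 to 3, against 3049, 3651 and 3741 in DMSO replicates 1 to 3. Its groups did not overlap, and it was at 0.765-fold of DMSO (with the block, limma adjusted p 0.00123; without it, 0.506).

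A wider list of 38 blood cell transcription factors held changes in both directions. Of 32 tested, 0 passed in limma without the block, 8 having an unadjusted p under 0.05, against 7.83% of all genes. With the block 8 fell, 4 rose and 20 missed the threshold, where 2.25% of all genes fell and 2.54% rose, and the list's median log2 fold change was -0.11. Bach1, a repressor of antioxidant genes that is regulated by haem, rose 2.18-fold with the block, at 1585 ± 527 with C28 and 702 ± 42.1 with DMSO (SD, n = 3 each; limma adjusted p 0.00138, and 0.162 without the block). Cebpb, a factor of myeloid differentiation and stress, rose 1.81-fold with the block, at 971 ± 43.4 and 541 ± 84.7 (limma adjusted p 0.000723, and 0.0722 without the block). Nfatc1, a calcium-regulated factor, rose 1.18-fold with the block.

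Among those that fell with the block were Myb, a factor of blood progenitors, at 2612 ± 24.7 normalized counts with C28 and 3419 ± 212 with DMSO (SD, n = 3 each; 0.765-fold, limma adjusted p 0.00137, and 0.137 without the block). Stat5a, which carries cytokine receptor signals, fell to 0.795-fold, Id2, an inhibitor of E proteins, to 0.765-fold, Nfatc2 to 0.757-fold and Hlf, a factor of blood stem cells, to 0.738-fold, with adjusted p in limma with the block between 0.00233 and 0.00900. Lyl1 and Zfpm1 lay further below DMSO in fold than these 5 of the 8 that fell. The lower Lyl1 values were in view when the genes were chosen, so this order is a description and no support.

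**Figure D4:**
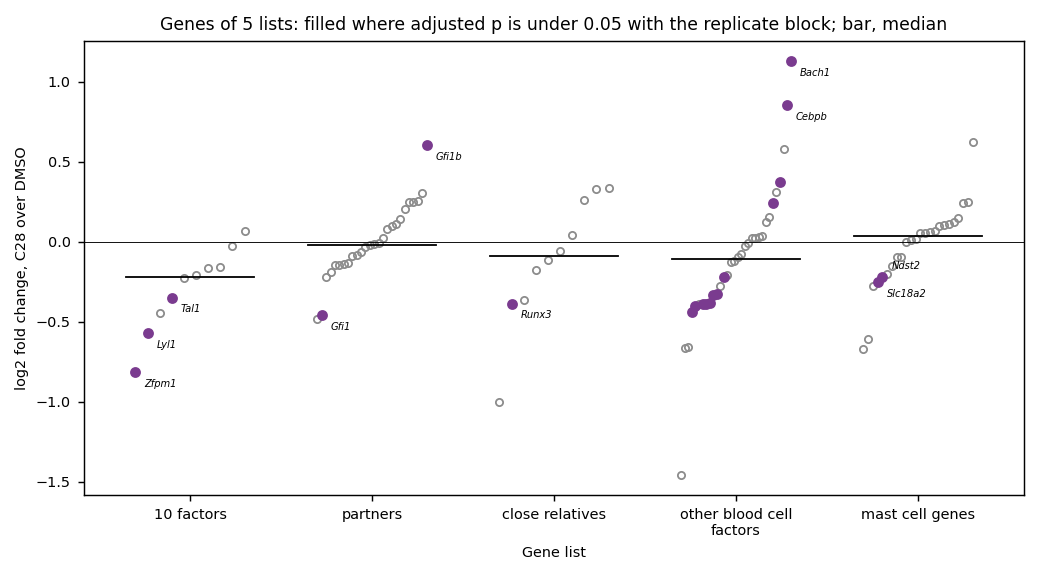
Log2 fold changes, C28 over DMSO, of the tested genes of 5 lists (columns), each list in order of its values. Filled purple points have an adjusted p under 0.05 in limma with the replicate block and open points do not; black bars are medians, which are -0.22 for the 10 factors and -0.02 for their partners.

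Mast cell genes, several of them known to be bound by GATA2 or MITF, gave 2 calls among 24 tested after 3 h. In limma 0 passed without the block, 1 having an unadjusted p under 0.05, against 7.83% of all genes. With the block 2 fell and 0 rose, where 2.25% of all genes fell and 2.54% rose. Their median log2 fold change was 0.03. Slc18a2, which loads amines such as histamine into granules, fell to 0.840-fold with the block, at 1706 ± 217 normalized counts with C28 and 2038 ± 339 with DMSO (limma adjusted p 0.0166). Ndst2, an enzyme of granule heparin synthesis, fell to 0.860-fold of DMSO, with a blocked adjusted p of 0.0184 in limma. Kit was at 19928 ± 3115 with C28 and 22046 ± 1757 with DMSO, and Cpa3 at 6790 ± 1698 and 6717 ± 1299 (SD, n = 3 each); neither passed in either limma fit. Of 9 tested erythroid and megakaryocyte genes 1 fell with the block, against 2.25% of all genes. That gene was Tfrc, the transferrin receptor that many growing cells make (0.857-fold, blocked adjusted p 0.0387 in limma).

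The genes most like each called factor were taken as those with the highest Pearson correlation of log2(value + 1) over the 6 libraries, among 9668 named rows averaging at least 100 normalized counts. With so many rows and 6 libraries that share 2 groups and 3 replicate numbers, high values arise readily, and they are given as a description. For Lyl1 they were Ints7, a subunit of the Integrator complex (r = 0.998), Hpdl (r = 0.996) and Mars2, the mitochondrial methionyl-tRNA synthetase (r = 0.996). Ints7 averaged 1094 normalized counts with C28 and 1443 with DMSO. For Tal1 they were Suv39h1, a histone H3K9 methyltransferase (r = 0.998), Trp53rka (r = 0.991) and Cpt2, of mitochondrial fatty acid import (r = 0.987), and for Zfpm1 they were Rin3 (r = 0.996), Fam84b (r = 0.995) and Fes, a tyrosine kinase of myeloid cells (r = 0.993). Fam84b averaged 679 normalized counts with C28 and 1111 with DMSO, with its highest value of each group in replicate 1, as for Zfpm1.

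In the RefSeq annotation of GRCm38.p6, Lyl1 and Zfpm1 lie on chromosome 8, Tal1 on 4, Gata2 and Mitf on 6, Lmo2 and Spi1 on 2, Fli1 on 9, Runx1 on 16 and Gata1 on X. The promoters of the 3 genes that fell with the block are shown because several of the factors bind short DNA motifs. Whether any of the factors acts on these 3 genes was not tested. Sequences are from RefSeq on GRCm38.p6, 250 bases before to 50 after the start site, and 7 of the 10 genes had such a window (12 windows in all); Lmo2, Fli1 and Spi1 had none in the table. Capitals mark matches on either strand to 9 motifs. For GATA factors these were AGATAA and the variant AGATAG, with TGATAA and the variant TGATAG. For E boxes they were CAGATG as well as CAGCTG, and for the E box of MITF the motif was CACATG alone. For RUNX factors TGTGGT was searched and for ETS factors GAGGAAGT alone was. Other sequences that ETS factors bind were not searched, so a window without this match may still hold them. No matches overlapped in these windows.
Tal1, first of 2 start sites, chr4:115056176-115056475, plus strand: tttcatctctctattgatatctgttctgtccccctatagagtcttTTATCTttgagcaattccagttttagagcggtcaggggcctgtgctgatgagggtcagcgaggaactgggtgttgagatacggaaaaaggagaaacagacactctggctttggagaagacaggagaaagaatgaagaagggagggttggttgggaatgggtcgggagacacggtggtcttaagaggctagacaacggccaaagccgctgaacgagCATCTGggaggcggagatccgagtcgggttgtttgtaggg
Lyl1, chr8:84701207-84701506, plus strand: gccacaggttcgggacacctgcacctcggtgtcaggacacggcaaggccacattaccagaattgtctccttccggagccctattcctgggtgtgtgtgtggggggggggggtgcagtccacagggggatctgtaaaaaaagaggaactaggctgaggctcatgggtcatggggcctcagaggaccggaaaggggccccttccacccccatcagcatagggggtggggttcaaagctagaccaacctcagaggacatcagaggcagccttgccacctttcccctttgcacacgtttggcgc
Zfpm1, chr8:122281891-122282190, plus strand: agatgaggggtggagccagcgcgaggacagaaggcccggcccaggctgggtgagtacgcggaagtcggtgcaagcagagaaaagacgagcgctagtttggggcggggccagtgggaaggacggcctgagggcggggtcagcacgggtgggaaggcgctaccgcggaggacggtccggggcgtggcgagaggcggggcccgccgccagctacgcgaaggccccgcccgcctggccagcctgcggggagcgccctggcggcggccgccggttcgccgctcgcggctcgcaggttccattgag

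The Tal1 window held AGATAA, read on the other strand, starting at position -205 from the start site, and CAGATG, also on the other strand, at position 10. The second Tal1 window, with its start 1385 bases downstream, and the windows of Lyl1 and Zfpm1 held no match to any of the 9 motifs, which says only that these letters are not in these windows. Of the 12 windows of the 7 genes, 3 held a GATA match, 2 an E box of the first kind, 2 a RUNX match, and 0 the MITF E box or the ETS match. Over all 32851 windows in the table, 29.8% held a GATA match, 30.6% CAGATG or CAGCTG, 16.8% the RUNX match, 14.2% CACATG and 3.20% the ETS match. The Lyl1 window was 60.0% G or C, that of Zfpm1 73.7% and the first of Tal1 50.7%.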

How the data were processed

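The 10 genes and all lists were chosen with earlier results of these data known. Reads were processed on mm9, and Bowtie2 and Cufflinks 2.2.1 are named without their roles, per the submitters' processing notes. No source used here gives the read counter or its strand setting, so a gene and an antisense neighbour may share reads. The deposited values are on a signal scale: 100% of the authors' values were whole multiples, within 0.01, of 1 library-specific unit, the value of 1 read, and division by it gave the recovered reads. The table also carries the authors' deposited log2 fold change and adjusted p-value. Sample titles gave the groups and replicate numbers.

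The filter kept 19087 rows, those reaching 1 in 3 or more of the 6 libraries. They were fitted by limma 3.58.1 (R 4.3.3, trend on) as log2(value + 1), a scale that understates the change of low genes. The replicate number as a block, edgeR 4.0.16 and DESeq2 1.42.0 on recovered reads, other pseudocounts, filters and scalings, and left-out libraries were alternatives. Over 10578 rows averaging at least 50, deviations from group means correlated at 0.844, 0.683 and 0.705 between same-numbered libraries, so the numbers were taken as pairs from the data; no label states a pairing. For replicates 2 and 3 the cross-number correlations were 0.543 and 0.411, so their pairing is less certain. The tests were checked on simulated data. The changes planted there were all larger than those of the 10 genes in the limma fits on all libraries. There the replicate effect was drawn separately for each gene and was typically smaller than that of Runx1, Gata1 or Zfpm1. The check therefore does not cover replicate differences as large as theirs or shared between genes, nor changes with C28 as small as those described here. Every gene of the 10 is named; from other lists, those past the threshold in either fit are named, at most 8 per list by p, with some of the highest and least read genes of marker lists. Tcf3, Tcf12, Ldb1, Cbfb, Il1rl1, Gzmb and low relatives of the 10 were added after their values were seen.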

Additional observations from a re-analysis of the deposited data

How the results depend on the processing

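The direction of C28 against DMSO was the same in all 25 alternatives for Gata1, Gata2, Tal1, Lyl1, Lmo2, Zfpm1, Fli1 and Mitf, and their calls followed the replicate block and the tool. Without the block, limma called 26 genes (20 to 30 under other pseudocounts, filters and scalings and in edgeR) and none of the 10 factors; without an intensity trend it called 51, and DESeq2 called 182 genes and 2 of the 10. With the replicate block limma called 914 genes and 3 of the 10, edgeR 1354 and 5, and DESeq2 740 and 4. With the block and settings chosen after seeing the data, limma called 875 genes under TMM scaling, 930 with no filter on low values and 258 under quantile normalization, with 3 of the 10 in each, and 1290 genes with 5 of the 10 at a mean of at least 10. Leaving out 1 library gave 0 to 23 genes and 0 of the 10; the 0 in limma came without C28 replicate 2, where 1207 genes had an unadjusted p under 0.05 (the cause was not tested; edgeR and DESeq2 were not run on that subset). With the replicate block, leaving out a pair gave 854, 47 and 191 genes (without replicates 1, 2 and 3) and 5, 1 and 2 of the 10. The genes whose groups did not overlap numbered 5 to 7 of the 10, 5 under TMM scaling, where Zfpm1 overlapped, and 5 under quantile normalization, where Mitf did. The count of 7 came only with 1 library left out, which makes separation easier for any gene. The share over all genes was not computed there.

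The log2 fold change of Runx1 turned positive in edgeR (0.0038) and DESeq2 (0.0014) without the block, without C28 replicate 1 (0.30), without DMSO replicate 2 (0.14), without DMSO replicate 3 (0.065) and with the replicate block without replicate 1 (0.039); leaving out 1 library gave -0.28 to 0.30. That of Spi1 turned negative without C28 replicate 1 (-0.016) and with the replicate block without replicate 1 (-0.014). For the replicate number, 3100 genes passed, and 1716 under quantile normalization; without an intensity trend 0 genes and 0 of the 10 passed in limma (3655 genes had an unadjusted p under 0.05; the cause was not tested; edgeR called 3889). The alternatives for H3K27ac peaks were not run. Gata1, with 63 to 181 reads per library, is the gene most limited by depth.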
